A study of Mus musculus with 12 samples.

Results

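Mt1, Mt2, Hamp, Steap4, Slc39a14, Slc40a1, Tfrc, Trf and Cp are genes by which the liver binds, imports, exports and transports iron, zinc and copper. They were chosen by name, with earlier results of these data known. These 9 genes are among 19937 genes that the array reads with a probe set of a single gene symbol. Their expression was measured in 12 liver arrays of C57BL/6 mice, 3 for each of 4 groups. The mice received 55 nmol/kg Albulin, 55 nmol/kg Insulin-Apo, 55 nmol/kg insulin glargine or saline, and the livers were taken 6 h later. The array methods give the route, under the skin, for Albulin, Insulin-Apo and saline but not for insulin glargine. All groups were wild type and, per the labels, 6 weeks old. The study's methods name female C57BL/6J mice of a different age at purchase. Albulin is insulin fused to albumin, and the study's discussion names this insulin as single-chain. Insulin-Apo is a single-chain insulin placed at the N-terminal end of human apolipoprotein A-I, and insulin glargine is a long-acting insulin analogue. Both fusion proteins were custom recombinant products expressed in E. coli. Insulin glargine was the commercial drug, and the study does not describe how it was made. The array methods describe the first 2 derivatives and saline, and the insulin glargine arrays are known from the labels only. Nothing in the sources says whether each array held the liver of another mouse. The p-values therefore cover the variation among these arrays alone, and that variation may be technical. Feeding and the time of day were not given.

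The liver is the main store of body iron and the source of hepcidin, the peptide hormone encoded by Hamp, which makes cells withdraw the iron exporter ferroportin from their surface. Iron circulates bound to transferrin and enters cells through the transferrin receptor, or, when it is not bound, through the zinc and iron importer ZIP14, encoded by Slc39a14. Inside the cell, metallothioneins bind zinc and copper, and their genes respond to metals, to glucocorticoids and to inflammatory cytokines. Hamp, Steap4 and Slc39a14 are known as genes that interleukin 6 raises in liver cells.

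The values are log2 expression values after the Robust Multichip Average (RMA) algorithm, so that a difference of 1 is a doubling. Each of the 9 genes had 1 probe set, a group of probes that reads one transcript, and all 9 passed the filter on dim probe sets, which asked for 2 arrays of one group with a value over 5. A difference was called when limma's B statistic, the log odds that a probe set differs, was over 0, and limma's p-values, adjusted after Benjamini and Hochberg, stand beside it. A gene is said to have risen or fallen only if it was called. Counts at an unadjusted p under 0.05 have no share of all probe sets beside them, and they cannot be read as an excess. The saline arrays served in all 3 comparisons with saline, so these comparisons are not independent of each other. Each group held 3 arrays, and this number limits the precision of every value. In whole liver, a change in the number of cells of a type and a change in RNA per cell cannot be told apart.

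Medians of the arrays ran over 7.70 to 7.77. Within groups, arrays correlated on average at 0.995 to 0.997 for Albulin, Insulin-Apo and saline and at 0.990 to 0.993 for insulin glargine, where replicate 3 was the lowest. All 9 hepatocyte markers were measured, with a mean of 14.35 to 14.46 in every array, and Alb lay between 14.79 and 14.86. Of 10 neutrophil markers, 4 (S100a8, S100a9, Cxcr2 and Mmp8) rose after Albulin against saline and none was called after Insulin-Apo or insulin glargine against saline, where 6 and 1 had an unadjusted p under 0.05. The mean of the 10 was 7.42 to 7.56 after Albulin, 7.23 to 7.38 after Insulin-Apo, 6.74 to 6.98 after insulin glargine and 6.86 to 7.06 after saline. Macrophage markers, most of them of Kupffer cells, numbered 11, and their mean was 10.30 to 10.48 after Albulin, 10.28 to 10.71 after Insulin-Apo, 9.71 to 10.36 after insulin glargine and 10.07 to 10.29 after saline. Of these 11, Marco rose after Insulin-Apo against saline (0.93, adjusted p = 0.0239, limma), and Marco (1.18, adjusted p = 0.00136) and Cd68 (0.74, adjusted p = 0.00356) were higher after Insulin-Apo than after insulin glargine. Against insulin glargine, 5 of the 10 neutrophil markers were called higher after Albulin and 3 after Insulin-Apo. Of all probe sets, 4.35% and 4.84% were called in these comparisons in either direction. Against saline, 1.37% of all probe sets were called higher after Albulin, 1.34% after Insulin-Apo and 2.24% after insulin glargine. Of 9 endothelial markers none was called against saline, where 4, 3 and 4 had an unadjusted p under 0.05 after Albulin, Insulin-Apo and insulin glargine. Compared with insulin glargine, Kdr was called higher after both Albulin (0.66, adjusted p = 0.00134, limma) and Insulin-Apo (0.53, adjusted p = 0.00491), and Gpr182 after Insulin-Apo (0.67, adjusted p = 0.00527). In both comparisons with insulin glargine, 5 of the 9 differences were positive and the rest were not. The mean of the 9 was 10.61 to 10.78 after Albulin and 10.66 to 10.77 after Insulin-Apo. It was 10.33 to 10.62 after insulin glargine and 10.32 to 10.73 after saline.

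Upstream sequences of Mt1, Mt2, Hamp and Steap4 are shown because Mt1 and Steap4 rose and Mt2 and Hamp, their counterparts in metal binding and in the cytokine response, were not called. They are the 250 bases before the start of each gene, from RefSeq on build GRCm38.p6, written 5′ to 3′ on the gene's own strand. Of the 9 genes, 6 had an entry. Capitals mark, on either strand, the core of the metal response element (TGCACNC or TGCGCNC), the palindrome bound by STAT factors (TTCNNNGAA) and the element of bone morphogenetic protein (BMP) signalling (GGCGCC).
Mt1, chr8:94178839-94179088, plus strand: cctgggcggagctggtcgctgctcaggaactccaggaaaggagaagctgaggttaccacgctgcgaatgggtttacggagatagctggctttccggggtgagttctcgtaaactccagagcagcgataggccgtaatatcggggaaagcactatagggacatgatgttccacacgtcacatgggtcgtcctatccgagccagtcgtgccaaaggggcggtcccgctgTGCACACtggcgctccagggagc
Mt2, chr8:94172368-94172617, plus strand: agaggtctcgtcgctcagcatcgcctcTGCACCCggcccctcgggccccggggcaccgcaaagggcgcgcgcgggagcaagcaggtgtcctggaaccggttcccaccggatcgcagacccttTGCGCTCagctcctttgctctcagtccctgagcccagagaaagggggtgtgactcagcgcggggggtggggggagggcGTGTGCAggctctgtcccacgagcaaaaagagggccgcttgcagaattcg
Hamp, chr7:30944030-30944279, minus strand: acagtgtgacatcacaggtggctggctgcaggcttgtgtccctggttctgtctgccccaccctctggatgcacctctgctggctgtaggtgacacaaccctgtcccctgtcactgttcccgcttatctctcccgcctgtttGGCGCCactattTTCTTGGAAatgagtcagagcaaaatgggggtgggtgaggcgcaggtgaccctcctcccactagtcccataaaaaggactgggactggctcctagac
Steap4, chr5:7960222-7960471, plus strand: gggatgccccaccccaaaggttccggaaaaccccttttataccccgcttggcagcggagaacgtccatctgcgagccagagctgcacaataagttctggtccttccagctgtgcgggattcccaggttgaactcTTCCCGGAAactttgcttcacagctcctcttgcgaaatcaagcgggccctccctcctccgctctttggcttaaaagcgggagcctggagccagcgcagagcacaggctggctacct
Mt1 held 1 core of the metal response element, at 23 to 17 bases before its start, and Mt2 held 3, at 223 to 217, 128 to 122 and 50 to 44 bases. A core was found in 21.4% of 32851 promoter windows of this length, and at least 3 in 1.26%. Hamp held 1 BMP element at 109 to 104 bases and 1 STAT palindrome at 97 to 89 bases before its start. Steap4 held 1 STAT palindrome at 116 to 108 bases. The BMP element occurred in 9.59% and the STAT palindrome in 7.02% of all windows. None of the motifs shown overlapped another. Tfrc and Cp had entries with 2 starts each. The first window of Tfrc held 1 BMP element and 2 metal cores that overlapped each other, its second window held none, and neither window of Cp held any of the 3 motifs. A match is only a match of letters. Only bases before the annotated start were searched, so cores past that start or further upstream were not counted. The counts of Mt1 and Mt2 therefore do not say which gene holds more metal response elements.

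The metal genes did not all move together. Against saline, 3 of the 9 rose and none fell after each insulin. Mt1 and Slc39a14 rose after all 3 insulins, Steap4 rose after Albulin and Insulin-Apo, and Tfrc rose after insulin glargine. Over all probe sets tested, 1.37% were called higher after Albulin, 1.34% after Insulin-Apo and 2.24% after insulin glargine. Because earlier results of these data were known when the 9 genes were chosen, these shares are no independent test of them. The median log2 difference of the 9 genes was 0.23 after Albulin, 0.21 after Insulin-Apo and 0.21 after insulin glargine, beside 0.0026, -0.017 and -0.00033 for all probe sets tested. The plot of expression by array gives every value of the 9 genes.

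**Figure D1:**
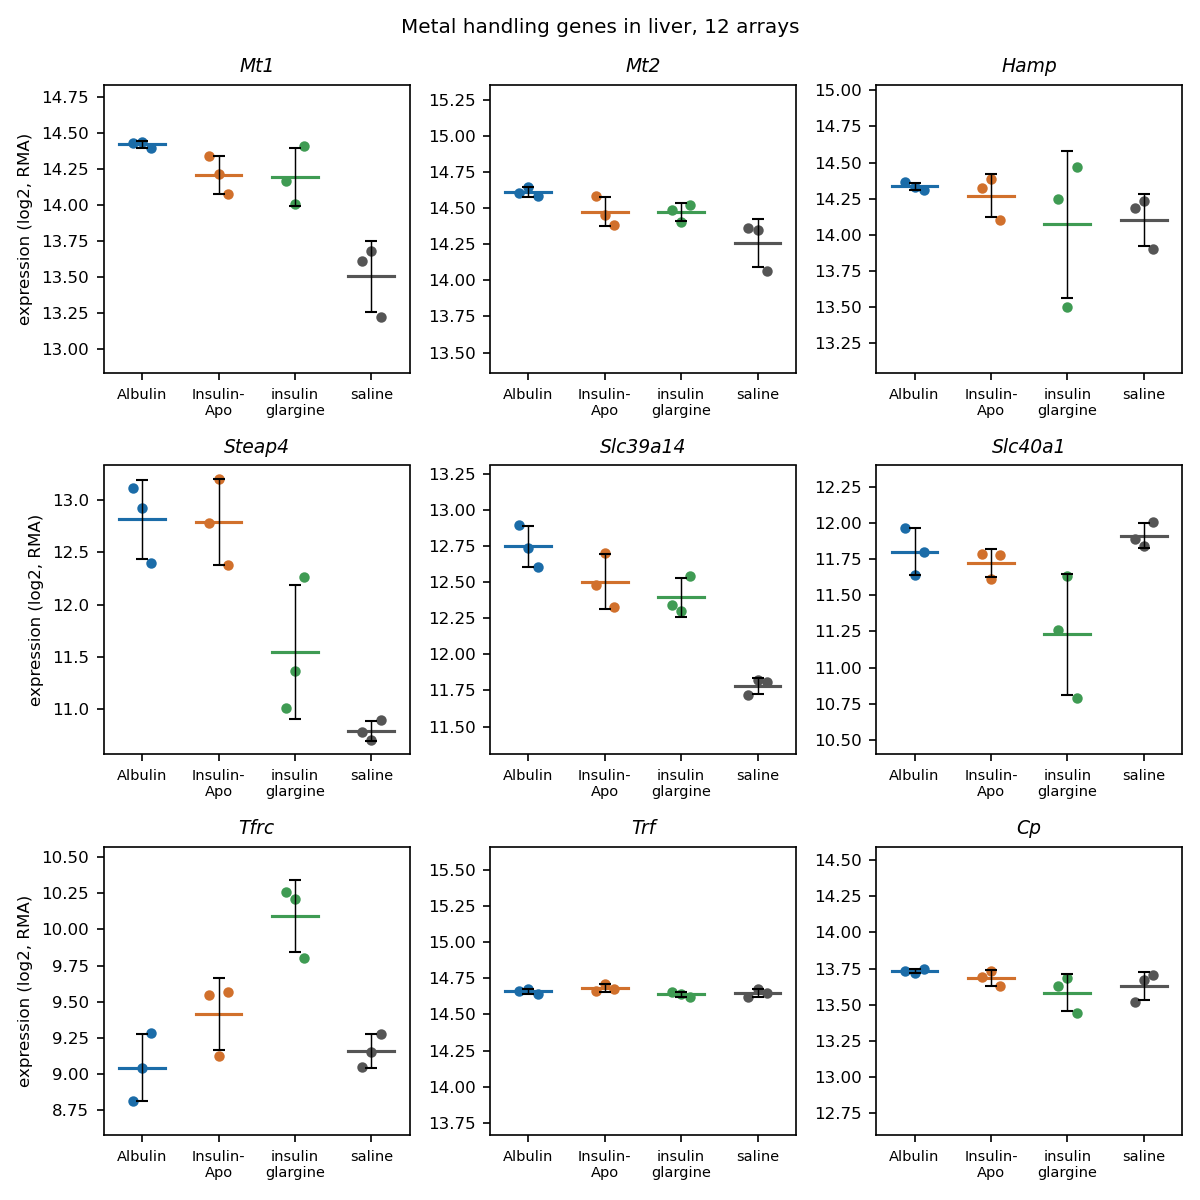
Expression (log2, RMA) of the 9 genes in each of 12 liver arrays, by group, with an axis of its own for each gene. Points are arrays (n = 3 per group), long bars are means and whiskers are SD. All insulin-treated arrays lie above the saline arrays for Mt1, Steap4 and Slc39a14, and the insulin glargine arrays lie above all others for Tfrc.

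Metallothioneins are small cysteine-rich proteins that hold zinc and copper in the cell. Mt1 (probe set 10574027) stood at 14.43, 14.44 and 14.39 after Albulin, 14.34, 14.22 and 14.08 after Insulin-Apo, 14.17, 14.00 and 14.41 after insulin glargine, and 13.61, 13.68 and 13.23 after saline. The lowest of the 9 insulin-treated arrays lay above the highest saline array. Groups that did not overlap were found for 23.3%, 23.1% and 24.8% of all probe sets after Albulin, Insulin-Apo and insulin glargine against saline. On the log2 scale, Mt1 rose by 0.91 after Albulin (1.89-fold, standard error 0.11, 95% interval 0.67 to 1.16, adjusted p = 0.00179, limma). It rose by 0.70 after Insulin-Apo (1.63-fold, 95% interval 0.46 to 0.95, adjusted p = 0.0075) and by 0.69 after insulin glargine (1.61-fold, 95% interval 0.42 to 0.96, adjusted p = 0.00393). The last call was lost without insulin glargine replicate 3, which had the highest Mt1 value of its group (0.58, adjusted p = 0.00921), and in a fit of only the 6 arrays compared (adjusted p = 0.0358).

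Mt2 (probe set 10574023), which lies next to Mt1 on chromosome 8, showed a smaller difference. Its values were 14.61, 14.65 and 14.59 after Albulin, 14.58, 14.45 and 14.39 after Insulin-Apo, 14.49, 14.41 and 14.53 after insulin glargine and 14.36, 14.35 and 14.07 after saline. Here too no insulin-treated array overlapped the saline arrays. The log2 difference from saline was 0.35 after Albulin (95% interval 0.16 to 0.55, adjusted p = 0.0465, B under 0), 0.21 after Insulin-Apo (adjusted p = 0.233) and 0.21 after insulin glargine (adjusted p = 0.157), and Mt2 was not called. Both metallothioneins were among the brightest probe sets, with 104 probe sets brighter than Mt1 and 35 brighter than Mt2 on average. The highest value of an array was 14.93 to 15.003, so that the Albulin arrays of Mt2 lay close to it, and the part of an upper limit of the scale in the small differences was not tested. Across the 12 arrays Mt1 followed Mt2 (r = 0.95, rho = 0.96) more closely than any other of 20504 probe sets with 1 gene symbol. Mx2, an interferon-induced GTPase (r = 0.93), Denn2b (r = 0.93) and Nfil3, a transcription factor (r = 0.93), came next. These correlations run across arrays of 4 groups and follow the group means as well as the spread within groups.

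Slc39a14 (probe set 10421309), the importer of zinc and of iron not bound to transferrin, rose after every insulin. It stood at 12.90, 12.74 and 12.61 after Albulin, 12.48, 12.71 and 12.33 after Insulin-Apo, 12.34, 12.30 and 12.55 after insulin glargine and 11.72, 11.82 and 11.81 after saline. The saline arrays lay close to each other and below all the rest. Slc39a14 rose by 0.96 after Albulin (1.95-fold, standard error 0.10, 95% interval 0.74 to 1.19, adjusted p = 0.000877, limma), 0.72 after Insulin-Apo (1.65-fold, 95% interval 0.50 to 0.95, adjusted p = 0.00481) and 0.61 after insulin glargine (1.53-fold, 95% interval 0.38 to 0.84, adjusted p = 0.00299). Without saline replicate 1 the call after insulin glargine was lost (0.58, adjusted p = 0.0162). Across the 12 arrays the genes that followed Slc39a14 most closely were Nek6, a kinase of cell division (r = 0.95), Nfil3 (r = 0.94), Mx2 (r = 0.94) and Tnfrsf1a, a receptor for tumour necrosis factor (r = 0.94). It also followed Mt1 (r = 0.92, rho = 0.94) and Steap4 (r = 0.90, rho = 0.90).

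Steap4 (probe set 10519497) encodes a metalloreductase that converts iron and copper to the forms in which they are carried across membranes, and it had the largest differences of the 9 genes after both fusion proteins. Expression was 13.12, 12.93 and 12.40 after Albulin, 12.78, 13.20 and 12.38 after Insulin-Apo, 11.02, 11.37 and 12.26 after insulin glargine and 10.78, 10.71 and 10.90 after saline. The arrays of both fusion proteins lay above all arrays of insulin glargine and saline, and insulin glargine replicate 3 lay apart from the other two of its group, near the lowest fusion protein arrays. Steap4 rose by 2.02 after Albulin (4.05-fold, standard error 0.20, 95% interval 1.57 to 2.47, adjusted p = 0.00069, limma) and by 1.99 after Insulin-Apo (3.97-fold, 95% interval 1.54 to 2.44, adjusted p = 0.00113). Among 20486 probe sets with 1 gene symbol it ranked 10 from the top after Albulin and 7 from the top after Insulin-Apo. After insulin glargine the log2 difference was 0.75 (95% interval 0.13 to 1.37, adjusted p = 0.125), and Steap4 was not called. The genes that followed it most closely across the 12 arrays were Lcn2, which encodes the siderophore-binding protein lipocalin 2 (r = 0.97), Litaf (r = 0.97), Rai14 (r = 0.97) and Nek6 (r = 0.97). The mean of the neutrophil markers was also higher in every array of both fusion proteins than in every saline array. After insulin glargine this mean ran over 6.74 to 6.98, beside 6.86 to 7.06 after saline. Every insulin glargine array of Steap4 lay above the saline arrays. The part of the neutrophil markers in the Steap4 differences was not tested.

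**Figure D2:**
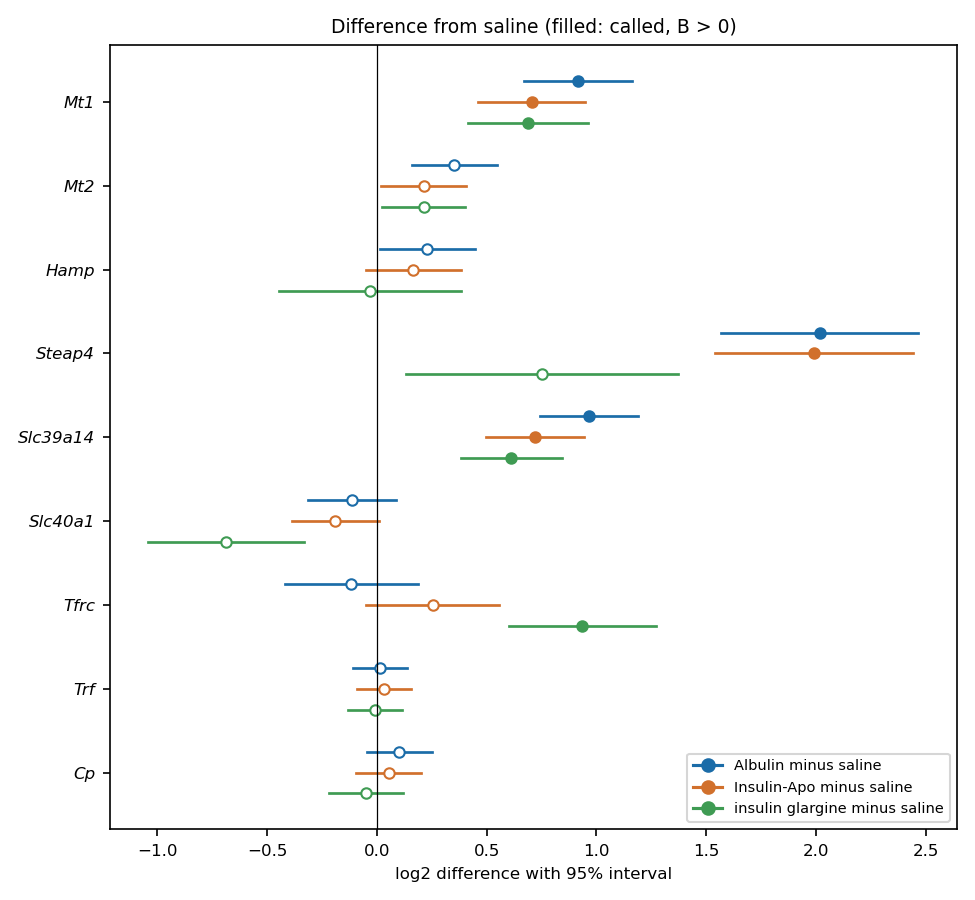
Log2 difference from saline of the 9 genes after Albulin, Insulin-Apo and insulin glargine, with 95% intervals from limma. Filled points were called (B over 0). The points of Steap4 lie at 2.02, 1.99 and 0.75, and those of Tfrc at -0.12, 0.25 and 0.93.

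Tfrc (probe set 10435075), the transferrin receptor that takes up iron-loaded transferrin, showed another pattern. It stood at 8.81, 9.04 and 9.28 after Albulin, 9.54, 9.12 and 9.57 after Insulin-Apo, 10.26, 10.21 and 9.81 after insulin glargine and 9.04, 9.15 and 9.28 after saline. Every insulin glargine array lay above every other array, while the Albulin and Insulin-Apo arrays overlapped the saline arrays. Tfrc rose by 0.93 after insulin glargine (1.91-fold, standard error 0.15, 95% interval 0.60 to 1.27, adjusted p = 0.00212, limma). The difference from saline was -0.12 after Albulin (95% interval -0.42 to 0.19, adjusted p = 0.75) and 0.25 after Insulin-Apo (95% interval -0.049 to 0.56, adjusted p = 0.384). Its closest followers across the arrays were Zbtb21 (r = 0.96), Ston1 (r = 0.96), 1700017B05Rik (r = 0.94) and Mex3c (r = 0.94).

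Slc40a1 (probe set 10354374) encodes ferroportin, the exporter that hepcidin controls. Its values were 11.97, 11.64 and 11.80 after Albulin, 11.79, 11.61 and 11.78 after Insulin-Apo, 11.26, 11.63 and 10.79 after insulin glargine and 11.89, 11.84 and 12.01 after saline. The Insulin-Apo and insulin glargine arrays lay below the saline arrays, and those of insulin glargine spread widely, with replicate 2 near the lowest Albulin and Insulin-Apo arrays. The log2 difference from saline was -0.69 after insulin glargine (95% interval -1.04 to -0.33, adjusted p = 0.0169, B under 0), -0.11 after Albulin (adjusted p = 0.599) and -0.19 after Insulin-Apo (adjusted p = 0.318), none of them called. Without insulin glargine replicate 2 the difference after insulin glargine was -0.89 and was called (adjusted p = 0.00197). Slc40a1 and Tfrc tended to run in opposite directions across the 12 arrays (r = -0.59, rho = -0.58), and Slc40a1 followed Stxbp3 (r = 0.98), Zranb1 (r = 0.96), Ercc3 (r = 0.96) and Gtf2i (r = 0.96) most closely. The lowest mean of the macrophage markers, cells that carry much ferroportin, was also found among the insulin glargine arrays, and its part in the values of Slc40a1 was not tested.

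Hamp (probe set 10562169), the hepcidin gene, was not called in any comparison. It stood at 14.36, 14.33 and 14.31 after Albulin, 14.32, 14.39 and 14.10 after Insulin-Apo, 14.25, 13.50 and 14.47 after insulin glargine and 14.18, 14.23 and 13.90 after saline. The Albulin arrays lay above the saline arrays by a narrow margin, and insulin glargine held both the lowest and the highest value of all arrays. The log2 difference from saline was 0.23 after Albulin (95% interval 0.013 to 0.45, adjusted p = 0.246, limma), 0.17 after Insulin-Apo (95% interval -0.051 to 0.38, adjusted p = 0.435) and -0.031 after insulin glargine (95% interval -0.45 to 0.39, adjusted p = 0.962). Without insulin glargine replicate 2 the last value was 0.26. Hamp lay near the top of the scale, with 86 brighter probe sets. Hamp2, its close copy in the mouse genome, averaged 11.48 ± 0.33 after Albulin, 11.48 ± 0.48 after Insulin-Apo, 11.67 ± 0.71 after insulin glargine and 11.62 ± 0.28 after saline (log2, SD, n = 3 each) and was not called either. Probes may not separate transcripts of the 2 copies fully, and this was not tested.

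Trf and Cp encode plasma proteins that the liver secretes, the iron carrier transferrin and the copper-containing ferroxidase ceruloplasmin. Trf (probe set 10596148) lay between 14.62 and 14.71 in all 12 arrays, with 14 brighter probe sets, and its difference from saline was 0.014 after Albulin (95% interval -0.11 to 0.14), 0.034 after Insulin-Apo (95% interval -0.089 to 0.16) and -0.0091 after insulin glargine (95% interval -0.13 to 0.11). Cp (probe set 10490989) stood at 13.73, 13.72 and 13.75 after Albulin, 13.69, 13.73 and 13.63 after Insulin-Apo, 13.63, 13.68 and 13.44 after insulin glargine and 13.52, 13.67 and 13.70 after saline. The 3 Albulin arrays of Cp lay just above the saline arrays, and the other groups overlapped them. Its difference from saline was 0.10 after Albulin (95% interval -0.045 to 0.25), 0.054 after Insulin-Apo (95% interval -0.093 to 0.20) and -0.047 after insulin glargine (95% interval -0.22 to 0.12). The adjusted p of both genes was at least 0.482 in these comparisons (limma).

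The insulins were then compared with each other at the same dose in nmol/kg and the same time. They differ in what is attached to insulin: albumin in Albulin, apolipoprotein A-I in Insulin-Apo and no carrier protein in insulin glargine. The insulin itself and its preparation differ too between the fusion proteins and insulin glargine. The study describes a single-chain insulin in both fusion proteins, and insulin glargine was a commercial analogue. In the study's cell assays Insulin-Apo was less active than insulin, so equal doses need not be equal in activity. These differences cannot be told apart here. Albulin and Insulin-Apo did not differ by the call in any of the 9 genes, against 0.639% of all probe sets called. At an unadjusted p under 0.05 in limma, 2 genes differed, Slc39a14 by 0.24 (95% interval 0.020 to 0.47, adjusted p = 0.33) and Tfrc by -0.37 (95% interval -0.67 to -0.066, adjusted p = 0.282). For Steap4 the interval of the difference between Albulin and Insulin-Apo ran over -0.42 to 0.48, and for Mt1 over -0.034 to 0.46. The 3 Albulin arrays of Mt1 lay above the 3 Insulin-Apo arrays, as did 18.6% of all probe sets in one direction or the other.

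Compared with insulin glargine, 1 of the 9 genes was called after Albulin, in the lower direction, where 4.35% of all probe sets were called in either direction and 2.01% lower. None of the 9 was called by limma after Insulin-Apo, where 4.84% of all probe sets were called. At an unadjusted p under 0.05 there were 3, and the share of all probe sets at that threshold was not computed. By an adjusted p under 0.05, 3 of the 9 differed after Albulin and 2 after Insulin-Apo, beside 8.94% and 10.8% of all probe sets. The arrays of the groups did not overlap for 23% of all probe sets between Albulin and insulin glargine and for 25.4% between Insulin-Apo and insulin glargine, among them Steap4 and Tfrc in both. Tfrc was lower after Albulin than after insulin glargine by a log2 difference of -1.05 (2.07-fold lower, standard error 0.15, 95% interval -1.38 to -0.72, adjusted p = 0.00104, limma). After Insulin-Apo the Tfrc difference from insulin glargine was -0.68 (95% interval -1.02 to -0.35, adjusted p = 0.0131, B under 0), and without insulin glargine replicate 3 it was -0.82 and was called (adjusted p = 0.00408). Steap4 differed from insulin glargine by 1.26 after Albulin (95% interval 0.65 to 1.88, adjusted p = 0.0147) and by 1.24 after Insulin-Apo (95% interval 0.62 to 1.86, adjusted p = 0.0143), both with B under 0. Leaving out insulin glargine replicate 3 turned both into calls, at 1.62 after Albulin (adjusted p = 0.000902) and 1.59 after Insulin-Apo (adjusted p = 0.00107), and leaving out Albulin replicate 3 did so for Albulin (1.47, adjusted p = 0.0142).

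Slc40a1 differed from insulin glargine by 0.57 after Albulin (95% interval 0.22 to 0.93, adjusted p = 0.0472) and by 0.50 after Insulin-Apo (95% interval 0.14 to 0.85, adjusted p = 0.0742), and neither was called by limma. Without insulin glargine replicate 2 these were 0.78 (adjusted p = 0.00454) and 0.70 (adjusted p = 0.0068) and both were called. For Mt1 and Slc39a14, which rose after all 3 insulins, the differences between insulins were not called. Albulin minus insulin glargine was 0.23 for Mt1 (95% interval -0.044 to 0.50) and 0.35 for Slc39a14 (95% interval 0.12 to 0.58, adjusted p = 0.06), and Insulin-Apo minus insulin glargine was 0.016 (95% interval -0.26 to 0.29) and 0.11 (95% interval -0.12 to 0.34). For Hamp, Trf and Cp all 3 intervals between insulins held 0.

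**Figure D3:**
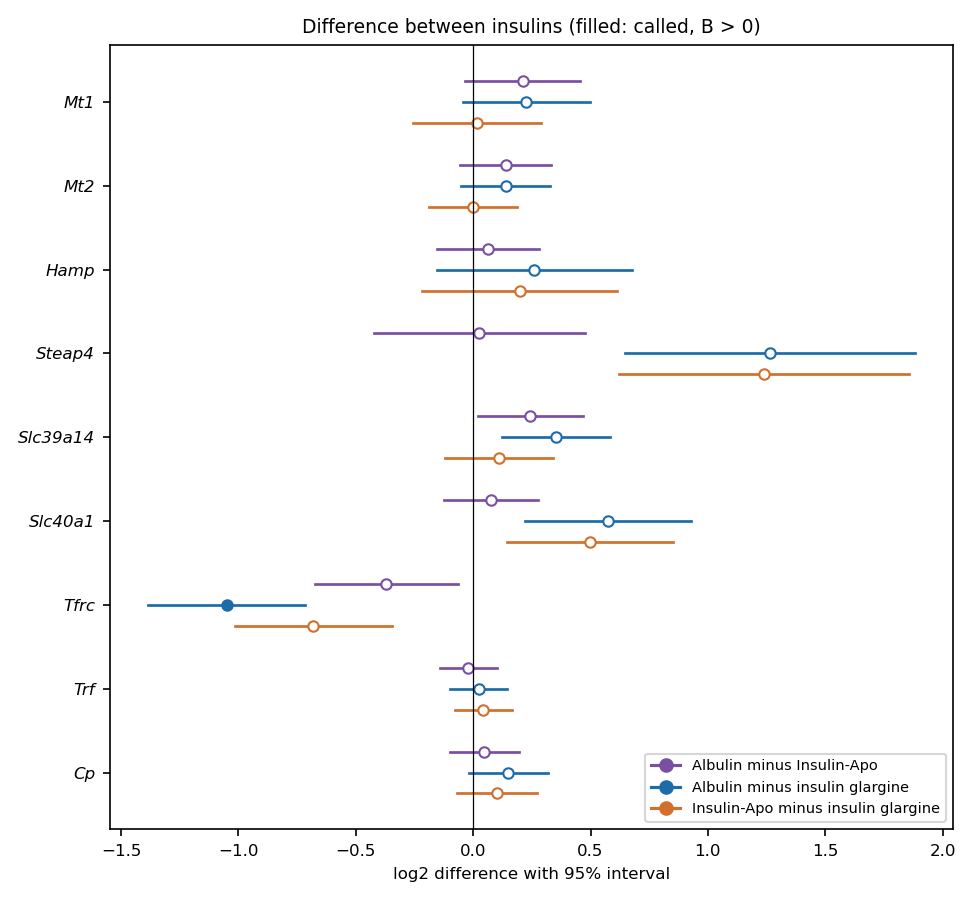
Log2 differences between the insulins for the 9 genes (Albulin minus Insulin-Apo, Albulin minus insulin glargine, Insulin-Apo minus insulin glargine), with 95% intervals from limma. Filled points were called (B over 0), which holds only for Tfrc, lower after Albulin than after insulin glargine by a log2 difference of -1.05.

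The wider pathways were read from lists of genes around these 9. Calls in either direction made up 2.41% of all probe sets after Albulin, 2.14% after Insulin-Apo and 4.84% after insulin glargine against saline. Of 21 genes that control iron and hepcidin, 1 rose and none fell after each insulin, a different gene each time. Under the alternatives these counts of calls ran over 1 to 2 after Albulin, 0 to 2 after Insulin-Apo and 1 to 2 after insulin glargine. Smad1, a transducer of BMP signals, rose by 0.57 after Albulin (adjusted p = 0.0055, limma) and differed by 0.17 after Insulin-Apo and 0.18 after insulin glargine. Fgl1, a secreted hepatocyte protein known as a BMP antagonist that lowers hepcidin in mice, rose by 0.41 after Insulin-Apo (adjusted p = 0.018) and differed by 0.34 after Albulin (adjusted p = 0.0322, B under 0). The call of Fgl1 was lost without any one of the Insulin-Apo arrays or saline replicate 1 (0.32 to 0.43, adjusted p 0.0281 to 0.0596), in a fit of all 12 arrays (adjusted p = 0.0775) and in a fit of only the 6 compared (adjusted p = 0.0492).

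Hjv, which encodes hemojuvelin, a BMP coreceptor needed for hepcidin expression, stood at 11.53, 11.71 and 11.49 after Albulin, 11.45, 11.41 and 11.37 after Insulin-Apo, 12.03, 12.29 and 12.14 after insulin glargine and 11.60, 11.52 and 11.53 after saline. The insulin glargine arrays lay above all others, as they did for Tfrc. Hjv rose by 0.60 after insulin glargine (95% interval 0.42 to 0.78, adjusted p = 0.000658, limma), and compared with insulin glargine it was lower by a log2 difference of -0.58 after Albulin (adjusted p = 0.000823) and of -0.74 after Insulin-Apo (adjusted p = 0.000155). These calls held in all alternatives run. Among the same 21 genes, Atoh8, a transcription factor of hepcidin control, was higher after Insulin-Apo than after insulin glargine by 0.81 (adjusted p = 0.00293), a call lost without Insulin-Apo replicate 2 (0.76, adjusted p = 0.0162) and in a fit of only the 6 arrays compared (adjusted p = 0.0295). Smad7, an inhibitor of BMP signals, was called lower after Albulin than after Insulin-Apo (-0.48, adjusted p = 0.0915), a call lost when any one Albulin array, Insulin-Apo replicate 1 or 2 or saline replicate 1 was left out (-0.52 to -0.41, adjusted p 0.13 to 0.236), after repeated quantile normalization (adjusted p = 0.117), and with all 12 arrays (adjusted p = 0.319) or only the 6 compared in the fit (adjusted p = 0.145).

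Of 23 genes of iron uptake, storage and recycling, 3 rose and none fell after Albulin, 2 fell and none rose after Insulin-Apo, and none was called by limma after insulin glargine, where 7 had an unadjusted p under 0.05. Under the alternatives 0 to 3 of them were called after Albulin, 0 to 4 after Insulin-Apo and 0 to 3 after insulin glargine. Hmox1, the haem oxygenase that frees iron from haem, stood at 11.41, 10.66 and 11.10 after Albulin, 10.96, 10.43 and 10.66 after Insulin-Apo, 10.08, 9.87 and 10.87 after insulin glargine and 10.14, 9.88 and 10.09 after saline. The arrays of both fusion proteins lay above the saline arrays, and insulin glargine replicate 3 lay far above the other two of its group. Hmox1 rose by 1.02 after Albulin (95% interval 0.64 to 1.41, adjusted p = 0.00928, limma), a call lost without Albulin replicate 3 or saline replicate 2 (0.95 to 1.00, adjusted p 0.0338 to 0.0448) and in a fit of all 12 arrays (adjusted p = 0.0439). It differed by 0.65 after Insulin-Apo (adjusted p = 0.0702). Hp, which encodes the haemoglobin-binding protein haptoglobin, rose by 0.32 after Albulin (adjusted p = 0.0207), a call lost when any one of the Albulin or saline arrays or Insulin-Apo replicate 1 or 3 was left out (0.30 to 0.36, adjusted p 0.0276 to 0.079), with array weights (adjusted p = 0.0206), and with all 12 arrays (adjusted p = 0.0345) or only the 6 compared in the fit (adjusted p = 0.0277).

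Ireb2 encodes IRP2, a protein that binds iron-responsive elements in transcripts such as that of Tfrc and protects this transcript when iron is scarce. It stood at 11.85, 11.72 and 11.71 after Albulin, 11.55, 11.41 and 11.35 after Insulin-Apo, 10.76, 10.96 and 10.32 after insulin glargine and 11.22, 11.29 and 11.34 after saline. None of the 3 insulins overlapped another or saline, and the order was Albulin, Insulin-Apo, saline and insulin glargine. The lowest Insulin-Apo array (11.348) lay only just above the highest saline array (11.345). In single comparisons, groups that did not overlap were found for 18.6% to 25.4% of all probe sets. Ireb2 rose by 0.47 after Albulin (95% interval 0.31 to 0.64, adjusted p = 0.00538, limma), a call lost in a fit of all 12 arrays (adjusted p = 0.0866). It differed by 0.15 after Insulin-Apo (adjusted p = 0.325) and by -0.61 after insulin glargine (adjusted p = 0.00969, B under 0). It was higher than after insulin glargine by 1.08 after Albulin (adjusted p = 0.000268) and by 0.76 after Insulin-Apo (adjusted p = 0.00283). After Insulin-Apo this call was lost without Insulin-Apo replicate 1 (0.70, adjusted p = 0.0141) and in a fit of only the 6 arrays compared (adjusted p = 0.0422).

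After Insulin-Apo, Steap3, the ferrireductase of endosomes, fell by 0.37 (adjusted p = 0.00994, limma) and Aco1, which encodes IRP1, fell by 0.36 (adjusted p = 0.0135). Steap3 lost its call without Insulin-Apo replicate 3 or saline replicate 1 or 2 (-0.35, adjusted p 0.0238 to 0.0501) and in a fit of all 12 arrays (adjusted p = 0.066), and Aco1 without Insulin-Apo replicate 1 or 2 or any one saline array (-0.36 to -0.33, adjusted p 0.0347 to 0.0575). The mitochondrial iron carriers were each called in 1 comparison between insulins. Slc25a37 was higher after Albulin than after Insulin-Apo by 0.42 (adjusted p = 0.0741), a call lost without Albulin replicate 1 or 3 or any one Insulin-Apo array (0.36 to 0.44, adjusted p 0.105 to 0.22), with median centring (adjusted p = 0.105) and in a fit of only the 6 arrays compared (adjusted p = 0.159). Slc25a28 was lower after Albulin than after insulin glargine by a log2 difference of -0.46 (adjusted p = 0.00485), a call lost without Albulin replicate 2 or 3 or insulin glargine replicate 1 or 2 (-0.48 to -0.40, adjusted p 0.0152 to 0.0254) and in a fit of only the 6 arrays compared (adjusted p = 0.0343).

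Of 11 measured genes of haem synthesis and export, none was called by limma after Albulin or Insulin-Apo, where 4 and 3 had an unadjusted p under 0.05, and 1 rose and 1 fell after insulin glargine. The alternatives gave 0 to 1 calls after Albulin, 0 to 1 after Insulin-Apo and 1 to 5 after insulin glargine. Flvcr1, a haem exporter, rose by 0.57 after insulin glargine (adjusted p = 0.00746), a call lost when any one saline array, insulin glargine replicate 1 or 2, Albulin replicate 2 or Insulin-Apo replicate 1 was left out (0.48 to 0.59, adjusted p 0.0115 to 0.035) and with median centring (adjusted p = 0.013). Ppox, an enzyme near the end of haem synthesis, fell by 0.48 after insulin glargine (adjusted p = 0.0026), a call lost in a fit of only the 6 arrays compared (adjusted p = 0.0227). Only 1 of the 11 genes had a positive difference after insulin glargine, where 8 had an unadjusted p under 0.05. The median of the 11 was -0.29 there, beside -0.00033 for all probe sets tested. The share of positive differences over all probe sets was not computed. Alas1, the first enzyme of the pathway, averaged 13.94 ± 0.10 after Albulin, 13.75 ± 0.20 after Insulin-Apo, 13.07 ± 0.31 after insulin glargine and 13.51 ± 0.025 after saline (log2, SD, n = 3 each). Saline lay between the fusion proteins and insulin glargine, and none of the 3 insulins was called against it (0.43 after Albulin, adjusted p = 0.0311, 0.23 after Insulin-Apo, adjusted p = 0.231, and -0.44 after insulin glargine, adjusted p = 0.0586). It was higher than after insulin glargine by 0.87 after Albulin (adjusted p = 0.00167) and by 0.67 after Insulin-Apo (adjusted p = 0.00707). The second of these calls was lost with each array left out in turn other than Insulin-Apo replicate 3 and insulin glargine replicate 3 (0.51 to 0.69, adjusted p 0.0106 to 0.0364), after repeated quantile normalization (adjusted p = 0.00898) and in a fit of only the 6 arrays compared (adjusted p = 0.0685).

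Ppox and Alad, both enzymes of haem synthesis, were higher after Insulin-Apo than after insulin glargine as well. The difference was 0.42 for Ppox (adjusted p = 0.00534, limma), a call lost without Insulin-Apo replicate 2 or 3 or any one insulin glargine array (0.38 to 0.44, adjusted p 0.0109 to 0.0252) and in a fit of only the 6 arrays compared (adjusted p = 0.0264). For Alad it was 0.39 (adjusted p = 0.00604), a call lost without Insulin-Apo replicate 2 or 3, saline replicate 2 or any one insulin glargine array (0.36 to 0.40, adjusted p 0.0105 to 0.0317), after repeated quantile normalization (adjusted p = 0.0144) and in a fit of only the 6 arrays compared (adjusted p = 0.0485).

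Of 23 further zinc genes, 3 rose and none fell after Albulin, 4 rose and 1 fell after Insulin-Apo, and 1 rose and none fell after insulin glargine. With the alternatives, 3 to 5 were called after Insulin-Apo and 1 to 2 after insulin glargine. Slc30a10, of the zinc exporter family but known as a manganese exporter, stood at 10.01, 9.97 and 9.99 after Albulin, 9.83, 10.02 and 9.74 after Insulin-Apo, 9.87, 9.80 and 10.11 after insulin glargine and 8.87, 8.73 and 8.87 after saline. All 9 insulin-treated arrays lay well above the saline arrays. It rose by 1.17 after Albulin (adjusted p = 0.000125, limma), 1.04 after Insulin-Apo (adjusted p = 0.000283) and 1.10 after insulin glargine (adjusted p = 3.58e-05), and these calls held in all alternatives run. The 95% interval of the difference between Albulin and Insulin-Apo was -0.044 to 0.30, between Albulin and insulin glargine -0.14 to 0.26, and between Insulin-Apo and insulin glargine -0.27 to 0.14.

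Slc39a7, which releases zinc from the endoplasmic reticulum and Golgi, and Slc30a5, which loads zinc into the secretory pathway, rose after both fusion proteins. Slc39a7 rose by 0.53 after Albulin (adjusted p = 0.00379, limma) and 0.79 after Insulin-Apo (adjusted p = 0.000769), and differed by 0.28 after insulin glargine (adjusted p = 0.0838). Slc30a5 stood at 11.11, 11.05 and 11.004 after Albulin, 11.15, 11.36 and 11.08 after Insulin-Apo, 10.24, 10.35 and 9.91 after insulin glargine and 10.33, 10.46 and 10.59 after saline. The fusion protein arrays lay above all others, and the insulin glargine arrays overlapped the saline arrays. Slc30a5 rose by 0.59 after Albulin (adjusted p = 0.00448) and 0.74 after Insulin-Apo (adjusted p = 0.00231), and was higher than after insulin glargine by 0.89 after Albulin (adjusted p = 0.00038) and 1.03 after Insulin-Apo (adjusted p = 0.000147). Each of these calls of Slc30a5, and those of Slc39a7 against saline, held in all alternatives run.

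Slc39a1, a zinc importer of the plasma membrane, rose by 0.46 after Insulin-Apo (adjusted p = 0.0126, limma), a call lost without Insulin-Apo replicate 2 or 3 or saline replicate 1 (0.39 to 0.45, adjusted p 0.0263 to 0.0482). It was higher after Insulin-Apo than after insulin glargine by 0.56 (adjusted p = 0.00121). Slc39a7 was higher there too, by 0.51 (adjusted p = 0.00469), a call lost without Insulin-Apo replicate 2 or 3 or insulin glargine replicate 1 or 3 (0.43 to 0.53, adjusted p 0.0111 to 0.0256) and in a fit of only the 6 arrays compared (adjusted p = 0.0451). Slc39a6, another importer of the family, was lower after Albulin than after insulin glargine (-0.35, adjusted p = 0.00676), a call lost with 9 of the 12 arrays left out in turn, all but Insulin-Apo replicate 1 and saline replicates 1 and 3 (-0.37 to -0.32, adjusted p 0.0104 to 0.0359), and in a fit of only the 6 arrays compared (adjusted p = 0.0393).

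Slc30a1, the zinc exporter of the plasma membrane, is known as a target of the metal-responsive factor MTF1, as the metallothioneins are. It averaged 9.83 ± 0.17 after Albulin, 9.30 ± 0.12 after Insulin-Apo, 10.02 ± 0.026 after insulin glargine and 9.81 ± 0.082 after saline (log2, SD, n = 3 each). Slc30a1 fell by 0.51 after Insulin-Apo against saline (adjusted p = 0.0157, limma), while Mt1 rose there. The call was lost without Insulin-Apo replicate 2 or saline replicate 1 or 2 (-0.52 to -0.44, adjusted p 0.051 to 0.0755). Mt1 rose after the other insulins too, where Slc30a1 was not called against saline. Its average was above that of saline after insulin glargine and near it after Albulin. The part of MTF1 in these values was not tested. Slc30a1 was lower after Insulin-Apo than after insulin glargine by a log2 difference of -0.72 (adjusted p = 0.000424), a call that held in all alternatives run. It was called higher after Albulin than after Insulin-Apo by 0.53 (adjusted p = 0.0704), a call lost without Albulin replicate 1 or 3 or Insulin-Apo replicate 2 (0.44 to 0.55, adjusted p 0.142 to 0.196).

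Of 12 measured copper genes none was called by limma after Albulin or Insulin-Apo, where 2 and 3 had an unadjusted p under 0.05, and 2 fell and none rose after insulin glargine. Between 0 and 1 were called after Insulin-Apo and 0 to 2 after insulin glargine under the alternatives. Slc31a1, the copper importer CTR1, stood at 12.20, 12.32 and 12.14 after Albulin, 12.14, 12.34 and 12.16 after Insulin-Apo, 11.79, 11.62 and 11.37 after insulin glargine and 12.04, 12.23 and 12.18 after saline. The insulin glargine arrays were the lowest, and the other groups overlapped. Slc31a1 fell by 0.56 after insulin glargine (adjusted p = 0.00465, limma), a call lost without saline replicate 2 or 3 or insulin glargine replicate 2 (-0.57 to -0.51, adjusted p 0.0118 to 0.0261) and in a fit of only the 6 arrays compared (adjusted p = 0.0328). It was higher than after insulin glargine by 0.63 after Albulin (adjusted p = 0.00241) and 0.62 after Insulin-Apo (adjusted p = 0.0025), calls lost in fits of only the 6 arrays compared (adjusted p = 0.0216 and adjusted p = 0.0311).

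Ccs, the chaperone that gives copper to superoxide dismutase, fell by 0.52 after insulin glargine (adjusted p = 0.00553, limma), a call lost without saline replicate 2 or 3 or insulin glargine replicate 2 or 3 (-0.52 to -0.42, adjusted p 0.0101 to 0.0286) and in a fit of only the 6 arrays compared (adjusted p = 0.0417). Cox11, a copper protein in the assembly of cytochrome oxidase, was lower than after insulin glargine by a log2 difference of -0.53 after Albulin (adjusted p = 0.00173) and -0.43 after Insulin-Apo (adjusted p = 0.00592). The second call was lost without Insulin-Apo replicate 1 or 3 or insulin glargine replicate 1 or 2 (-0.43 to -0.38, adjusted p 0.0212 to 0.0265), with median centring (adjusted p = 0.0109) and in a fit of only the 6 arrays compared (adjusted p = 0.044).

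**Figure D4:**
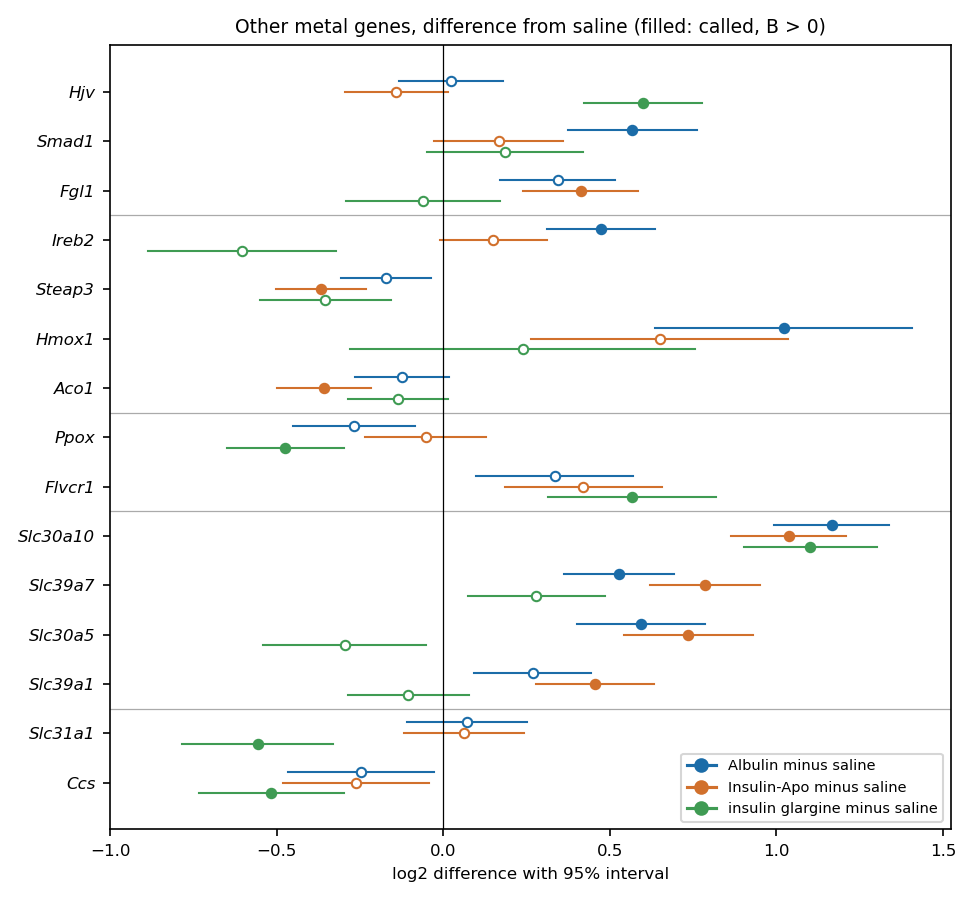
Log2 difference from saline of 15 further genes of iron, haem, zinc and copper handling after Albulin, Insulin-Apo and insulin glargine, with 95% intervals from limma. Filled points were called (B over 0), and lines separate the lists. The 3 points of Slc30a10 lie between 1.04 and 1.17, while those of Ireb2 lie at 0.47, 0.15 and -0.61.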

How the data were processed

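Livers of 4 groups, 3 arrays each, were measured on Affymetrix Mouse Gene 1.0 ST arrays, and groups were taken from the labels. The authors corrected the background and normalized with RMA, and the deposited table gives 28213 probe sets as log2 expression values. Which RMA version and annotation build were used, and whether the 12 arrays were normalized in one run, is not given in the sources used here. RMA brings the distributions of arrays together, so a shift of all genes would not be seen. A gene was read from the brightest probe set with exactly 1 symbol (21640 of the probe sets, against 1321 with several and 5252 with none).

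Probe sets were tested where 2 or more arrays of any group had a value over 5. limma 3.58.1 (R 4.3.3) was fitted to the 9 arrays of Albulin, Insulin-Apo and saline (25989 probe sets) and, for insulin glargine, to all 12 arrays (26027). Calls needed B over 0 with a prior proportion of 0.01. Adjusted p-values cover all probe sets tested, and the fit gave the 95% intervals. The procedure was tested on simulated data. Promoter windows and figures were made in Python 3.11.15 with matplotlib 3.10.9.

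The 9 genes, the pathway lists and the markers were chosen with earlier results of these data known. Pathway genes named are up to 4 per list with the smallest p among those called against saline. For each of the 9 genes, the 4 probe sets with the highest correlation across the arrays were found. Hp, Slc30a1, Alas1, Alad, Smad7, Atoh8, Slc25a37, Slc25a28, Slc39a6, Cox11, Hamp2 and the called cell type markers were named after their values were seen. Alternatives covered the filter (none, or a value over 6), scaling (median centring, or quantile normalization again), a block for the replicate number, an intensity trend, array weights, the arrays in the fit (all 12, or only the 6 compared), calls by an adjusted p under 0.05, averaging over a gene's probe sets, and leaving out each array. Those for single pathway genes were chosen after seeing the data.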

Additional observations from a re-analysis of the deposited data

How the results depend on the processing

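With 3 arrays a group, precision is limited by their number, and signals near the top of the scale may understate differences. Over 1134 values of the 9 genes under the alternatives, 1087 kept their direction and their side of B = 0, 3 calls were lost and 17 gained. Differences that changed sign (27) were all uncalled. With median centring the sign changed for Trf after insulin glargine against saline (0.00057) and for Mt2 between Insulin-Apo and insulin glargine (0.011). With array weights the sign changed for Steap4 between Albulin and Insulin-Apo (-0.0019), Trf (0.00033) and Cp (0.0054) after insulin glargine against saline, and Mt2 between Insulin-Apo and insulin glargine (0.010).

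The number of the 9 genes called between Albulin and insulin glargine was 2 with array weights and 3 by an adjusted p under 0.05. Between Insulin-Apo and insulin glargine it was 1 after repeated quantile normalization, 2 with array weights and 2 by an adjusted p under 0.05. With each array left out, these counts ranged over 1 to 2 and 0 to 2. The differences ranged over -0.23 to 0.00023 for Tfrc after Albulin against saline and -0.0013 to 0.090 for Cp after Insulin-Apo against saline. After insulin glargine against saline they ranged over -0.23 to 0.26 for Hamp, -0.023 to 0.0051 for Trf and -0.10 to 0.023 for Cp. Between Albulin and Insulin-Apo they ranged over -0.021 to 0.12 for Hamp, -0.18 to 0.23 for Steap4 and -0.0058 to 0.16 for Slc40a1. Between Albulin and insulin glargine they ranged over -0.025 to 0.46 for Hamp. Between Insulin-Apo and insulin glargine they ranged over -0.078 to 0.12 for Mt1, -0.055 to 0.044 for Mt2 and -0.089 to 0.40 for Hamp. The causes were not tested.

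The labels do not say whether replicate numbers pair the arrays. Deviations of arrays with the same number correlated at -0.27 to 0.15 (18 pairs) and of other numbers at -0.17 to 0.27 (36 pairs). These correlations were not higher for the same number, but they cannot show how the arrays were run. The replicate block changed no call and no count of calls of the 9 genes. Steap4 after Albulin, for example, kept 2.02 (adjusted p = 0.00143), and 3 of the 9 were called there. It ended 7 calls of pathway genes, namely Hp after Albulin (0.32, adjusted p = 0.0306), Fgl1 after Insulin-Apo (0.41, adjusted p = 0.0383) and Ccs after insulin glargine (-0.52, adjusted p = 0.0143) against saline, Slc25a28 (-0.46, adjusted p = 0.0136) and Slc39a6 (-0.35, adjusted p = 0.0176) between Albulin and insulin glargine, and Alas1 (0.67, adjusted p = 0.0162) and Alad (0.39, adjusted p = 0.0154) between Insulin-Apo and insulin glargine. A fit of only the 6 arrays compared ended 1 call of the 9 genes, Mt1 after insulin glargine, and a fit of all 12 arrays ended none. Of 932 alternative values of the called pathway genes, 141 lost the call and none changed sign, and 18 of 44 calls were never lost. Of 630 list counts under the alternatives, 123 moved by more than 1.5 times.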
